A study of Mus musculus with 140 samples.

Results

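Acta1, Acta2, Tagln and Cnn1 are 4 genes of the contractile apparatus whose signals were followed by day in mouse embryonic stem cells. All probe sets that the array annotation assigns to only 1 of these genes were taken, which gave 6 of the 45265 probe sets and 4 of the 18194 named genes. The genes were selected on their signals in the knockdown courses of these same samples. Their differences from the empty vector in those courses are therefore a description and carry no test. 5 of the probe sets, and all 4 genes, passed the filter on low signals.

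Acta1 encodes the actin of skeletal muscle fibres and Acta2 the actin of smooth muscle. Tagln encodes transgelin, an actin-binding protein of smooth muscle, and Cnn1 encodes calponin, which binds actin and tropomyosin and slows the myosin motor. In many cell types these genes are driven by serum response factor (SRF), which binds CArG boxes, together with the myocardin-related cofactors (MRTF) that enter the nucleus when free actin monomers are used up. Transforming growth factor beta (TGF-beta) raises the same genes in fibroblasts and other stromal cells, and they also appear in spreading cells that form stress fibres, so none of the 4 by itself marks muscle.

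The cells were male 129/Sv embryonic stem cells of the CCE line, and each of 70 RNA samples was measured on both array designs (A and B) of the mouse 430 set from Affymetrix. In 7 courses a short hairpin RNA (shRNA) was directed at Nanog, Sox2, Esrrb, Tbx3, Tcl1, Oct4 (encoded by Pou5f1) or Mm343880, which is named here as the labels name it. In a further course the cells received 5 µM retinoic acid without LIF, the cytokine that keeps these cells undifferentiated, and its labels describe neither transduction nor sorting. The empty vector course was the reference for the knockdown courses. All transduced cells, the empty vector cells included, grew with 1000 units/ml of LIF and were sorted daily for GFP. Sampling began 48 hours after transduction, on day 0. It ended on day 6 under Mm343880 shRNA and retinoic acid (7 samples each) and on day 7 elsewhere (8 samples each). There was 1 sample a day in a course and no repeated transduction, so errors and p-values measure the scatter of samples around smooth curves over days, which may be technical. In the 6 courses where the targeted gene was examined, 8 of 8 days were below the empty vector, by 2.69-fold (Esrrb) to 6.78-fold (Nanog) in mean signal. For Mm343880 shRNA the target was not examined here. Embryonic stem cell markers (Pou5f1, Nanog, Sox2, Zfp42, Esrrb and Klf4) summed to 12663 to 35038 signal units on days 4 to 6 of the 7 knockdown courses. They summed to 1133 to 1787 in the retinoic acid course and to 35711 to 40007 in the empty vector course. Pou5f1, Nanog, Sox2 and Esrrb were themselves shRNA targets, so in those courses part of the lower sum is the knockdown itself.

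RefSeq sequences around the annotated start (250 bases before it to 50 after it, mouse build GRCm38.p6) were held for 3 of the 4 genes and are shown for both actin genes, since SRF is known to act through sites close to the start of actin genes. Capitals mark CArG boxes, counting those with 1 other base in the A and T core.

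Acta1, chr8:123894726-123895025, minus strand: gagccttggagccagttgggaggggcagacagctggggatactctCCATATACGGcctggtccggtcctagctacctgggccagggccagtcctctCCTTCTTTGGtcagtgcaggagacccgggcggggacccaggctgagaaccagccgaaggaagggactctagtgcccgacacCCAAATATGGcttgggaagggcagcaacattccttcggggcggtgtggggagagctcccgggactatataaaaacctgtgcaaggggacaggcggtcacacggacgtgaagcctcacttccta

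Acta2, chr19:34255324-34255623, minus strand: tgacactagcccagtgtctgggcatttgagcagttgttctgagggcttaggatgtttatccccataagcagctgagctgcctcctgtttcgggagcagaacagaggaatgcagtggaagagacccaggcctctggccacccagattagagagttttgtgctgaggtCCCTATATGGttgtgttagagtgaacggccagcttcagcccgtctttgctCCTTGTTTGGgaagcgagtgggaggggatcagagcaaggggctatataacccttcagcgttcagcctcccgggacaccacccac

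The Acta1 window held 1 exact CArG box, at -73 relative to the start, and 2 with 1 other core base, at -205 and -154. The Acta2 window held 0 exact boxes and 2 with 1 other core base, at -84 and -34. The Cnn1 window (chr9:22099003-22099302, plus strand) held neither form. Of 32544 windows of this length, 1.64% held an exact box and 9.96% held one with at most 1 other core base. The letters CATTCC, the core bound by TEAD factors, occurred on either strand once in the Acta1 window, once in the Acta2 window and 0 times in the Cnn1 window, and 14.6% of all windows held them. Such matches describe letters and not binding.

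The 4 genes were higher in all 7 knockdown courses than in the empty vector course on the late days 4, 5 and 6. For each gene, 21 of 21 late samples were above the empty vector sample of the same day. The late differences from the empty vector, as folds of log2(signal + 63.1) averaged over the fitted curves of those days, were between 2.16 (Oct4) and 21.5 (Sox2) for Acta1. They were between 2.03 (Nanog) and 9.81 (Mm343880) for Acta2, between 3.09 (Oct4) and 15.5 (Sox2) for Tagln, and between 1.40 (Oct4) and 10.3 (Mm343880) for Cnn1. The Cnn1 folds are uncertain, because its late empty vector mean, 60.6, is under the pseudocount: over the other settings its log2 difference was 2.15 to 4.28 in the Mm343880 course and 0.20 to 0.84 in the Oct4 course. The knockdowns of Nanog and Oct4 gave the 2 smallest folds of every gene, with Tbx3 next, while Sox2, Esrrb, Tcl1 and Mm343880 gave the 4 largest. Because the array signal is summed over a sorted population, more cells with the transcript and more transcript per cell cannot be told apart.

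**Figure D1:**
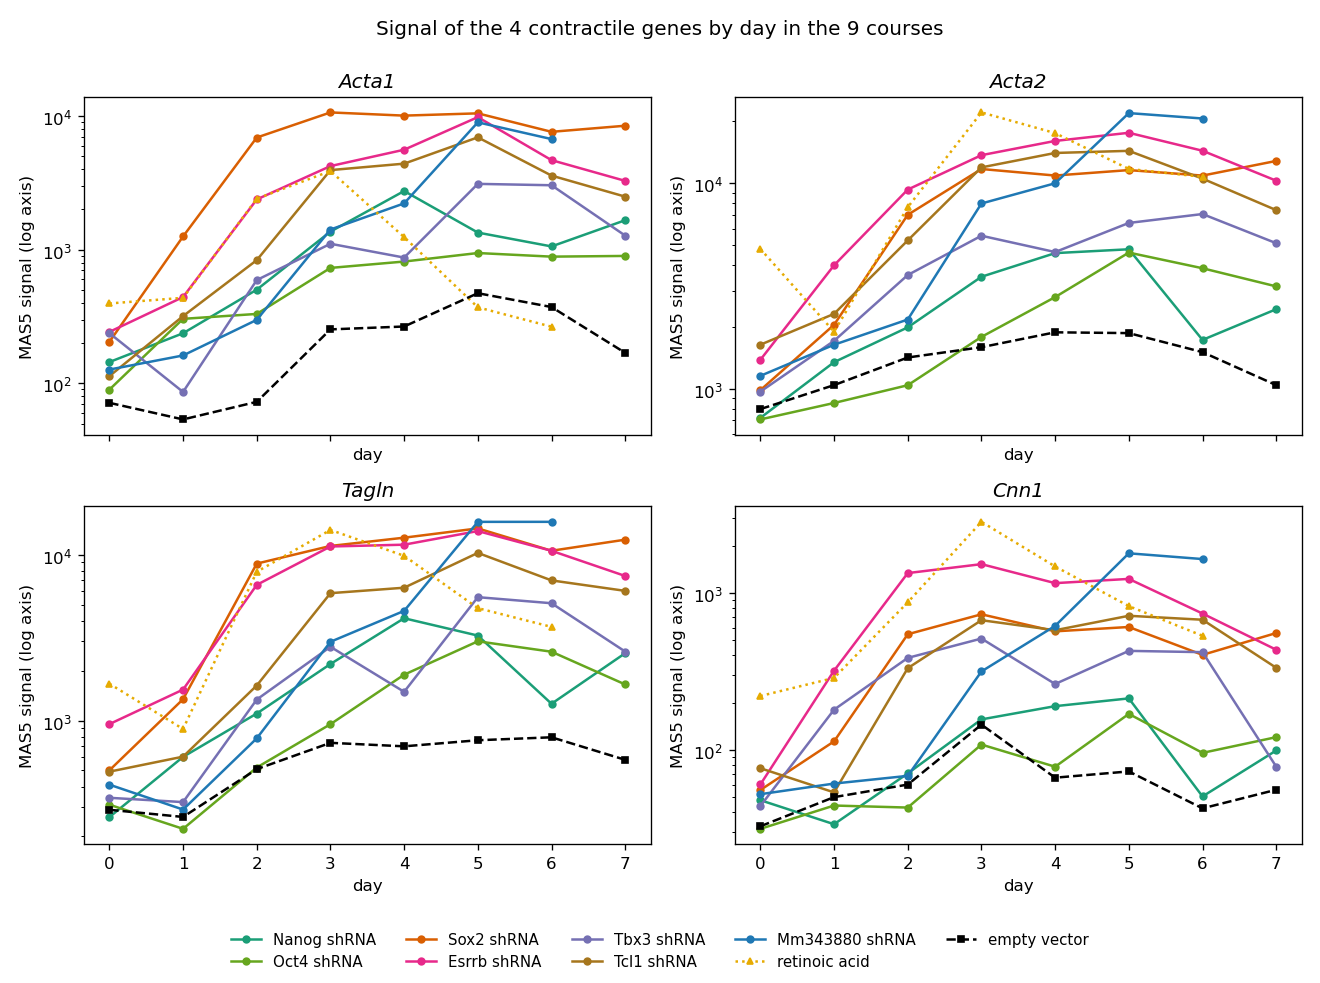
Deposited MAS5 signal (log axis) of the probe set that represents each gene, by day, in the 7 knockdown courses, the retinoic acid course (dotted) and the empty vector course (dashed); each point is 1 sample. The Sox2 and Esrrb courses climb by day 2, the Mm343880 course jumps between days 4 and 5, and the retinoic acid course peaks on day 3.

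The late differences of Acta1 spanned the widest range over the courses. On days 4, 5 and 6 its signal was 10079.5, 10482 and 7624 under Sox2 shRNA, and 5601, 9819 and 4680.3 under Esrrb shRNA, against 266, 473 and 373 in the empty vector course. These samples did not overlap those of the empty vector, and the mean was 9395 ± 1547 under Sox2 shRNA and 370.5 ± 103 in the empty vector course (SD, n = 3 days each). Under Mm343880 shRNA the late signals were 2222, 8979 and 6728, and under Tcl1 shRNA 4406, 6933 and 3587. Under Tbx3 shRNA they were 873, 3110 and 3037, and under Nanog shRNA 2749, 1344 and 1058. The lowest late signals of a knockdown course were those under Oct4 shRNA, at 816, 945 and 888, and these too were above every late sample of the empty vector. The late log2 differences were 4.42 ± 0.38 for Sox2, 3.92 ± 0.38 for Esrrb, 3.65 ± 0.38 for Mm343880, 3.57 ± 0.38 for Tcl1, 2.32 ± 0.38 for Tbx3, 1.96 ± 0.38 for Nanog and 1.11 ± 0.38 for Oct4 (SE of the fit). In this order of mean signals, neighbours overlapped in their late samples except Tcl1 over Tbx3 and Nanog over Oct4.

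Acta2, the smooth muscle actin gene, was highest under Mm343880 and Esrrb shRNA. Under Mm343880 shRNA the signals on days 4, 5 and 6 were 9991, 21937 and 20647, and under Esrrb shRNA 16057, 17591 and 14385, against 1879, 1863 and 1505 in the empty vector course. Under Tcl1 shRNA they were 14031, 14369.9 and 10523, and under Sox2 shRNA 10894, 11580 and 10887. These 4 courses were each above the highest late sample of Tbx3 shRNA, whose signals were 4621, 6404 and 7076. The late signals were 2789, 4594 and 3854 under Oct4 shRNA and 4566, 4767 and 1726 under Nanog shRNA. The day 6 sample of the Nanog course lay within the range of the late empty vector samples, and every other late knockdown sample was above that range. The late log2 differences were 3.29 ± 0.28 for Mm343880, 3.15 ± 0.28 for Esrrb, 2.91 ± 0.28 for Tcl1, 2.69 ± 0.28 for Sox2, 1.76 ± 0.28 for Tbx3, 1.08 ± 0.28 for Oct4 and 1.02 ± 0.28 for Nanog (SE).

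Tagln, like Acta1, had its highest late mean under Sox2 shRNA. Its signals on days 4, 5 and 6 were 12665, 14408 and 10564 under Sox2 shRNA, 4584, 15777 and 15783 under Mm343880 shRNA, and 11491, 13888 and 10558 under Esrrb shRNA, against 699, 760.3 and 792 in the empty vector course. The means of these 3 knockdown courses were 12546 ± 1925, 12048 ± 6464 and 11979 ± 1717, against 750.4 ± 47.4 in the empty vector course (SD, n = 3 days each), and the order of the 3 was within their spread. The Tcl1 course had 6322, 10253 and 6998, and the Tbx3 course 1489.6, 5545 and 5097. The Nanog course had 4137, 3253 and 1262, and the Oct4 course 1889, 3004 and 2599.7. No late knockdown sample overlapped the empty vector. The late log2 differences were 3.95 ± 0.40 for Sox2, 3.90 ± 0.40 for Esrrb, 3.78 ± 0.40 for Mm343880, 3.35 ± 0.40 for Tcl1, 2.19 ± 0.40 for Tbx3, 1.76 ± 0.40 for Nanog and 1.63 ± 0.40 for Oct4 (SE).

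Cnn1 signals were low in many samples, with 33 of 70 above the median of the A array table, 283. Its signals on days 4, 5 and 6 were 617, 1788 and 1643 under Mm343880 shRNA, 1154, 1228 and 739 under Esrrb shRNA, and 578, 715 and 675 under Tcl1 shRNA, against 66.5, 72.9 and 42.4 in the empty vector course. Under Sox2 shRNA they were 569, 607 and 403, and under Tbx3 shRNA 263, 427 and 419. These 5 courses were above every late sample of the empty vector. The late signals were 189.9, 213 and 50.5 under Nanog shRNA and 78.1, 169.5 and 95.7 under Oct4 shRNA, and the Nanog day 6 sample lay within the empty vector range. The late log2 differences were 3.36 ± 0.32 for Mm343880, 3.05 ± 0.32 for Esrrb, 2.52 ± 0.32 for Tcl1, 2.23 ± 0.32 for Sox2, 1.67 ± 0.32 for Tbx3, 0.73 ± 0.32 for Nanog and 0.49 ± 0.32 for Oct4 (SE).

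**Figure D2:**
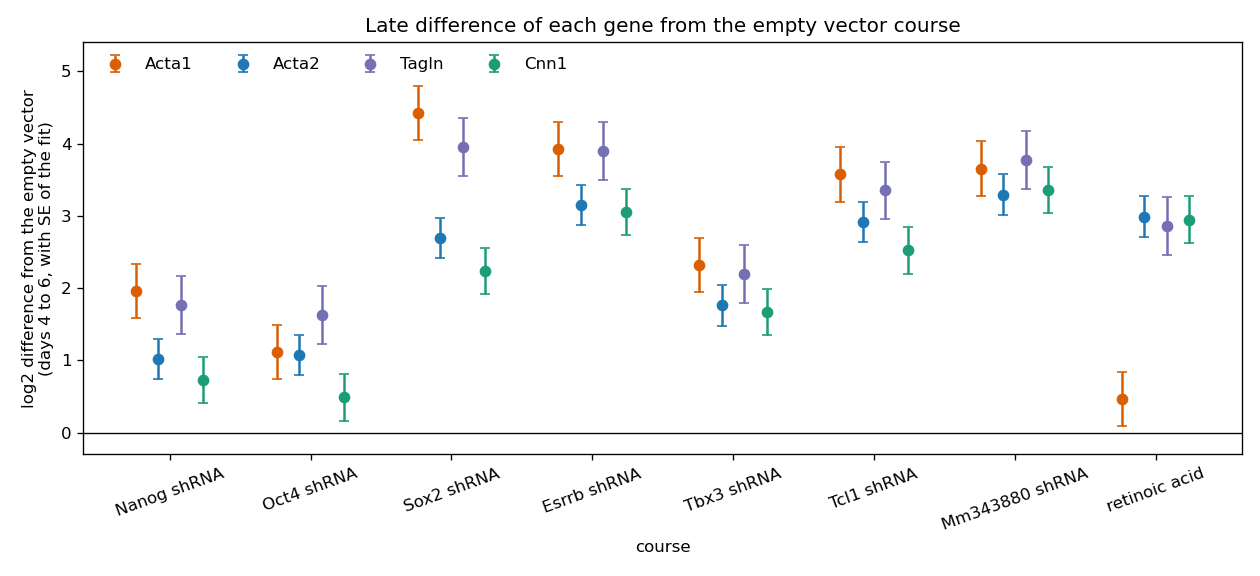
Late log2 difference of each gene from the empty vector course (average of the fitted curves over days 4 to 6), with the standard error of the fit, in the 7 knockdown courses and the retinoic acid course. In the Sox2 course Acta1 (4.42) and Tagln (3.95) stand above Acta2 (2.69) and Cnn1 (2.23), and in the retinoic acid course Acta1 (0.46) stands below the other 3 genes.

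The order of the courses was not the same for the 4 genes. The Sox2 course ranked first of the 9 courses for Acta1 and Tagln and only at rank 5 for Acta2 and Cnn1. The Mm343880 course ranked first for Acta2 and Cnn1. In the Esrrb, Tcl1 and Mm343880 courses the 4 log2 differences lay within 0.87, 1.05 and 0.48 of each other, and in the Sox2 course they spanned 2.19. Whether the genes differed from each other within a course was not tested.

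The days on which the genes climbed differed between courses. In the Sox2 course Tagln was 501 on day 0, 1345 on day 1 and 8837 on day 2, and Acta1 was 204, 1257 and 6909 on the same days. In the Esrrb course Cnn1 was 60.2, 320 and 1338 on days 0, 1 and 2, and Acta1 was 243, 442 and 2378. By day 3 Tagln was at 11291 in the Sox2 course and 11207 in the Esrrb course, near its late signals there, whereas Acta1 in the Esrrb course was at 4225 on day 3 and 9819 on day 5. The Mm343880 course was later, with Tagln at 781 on day 2, 2984 on day 3, 4584 on day 4 and 15777 on day 5. All 4 genes there more than doubled between days 4 and 5, Acta1 being 2222 and 8979, Acta2 9991 and 21937, and Cnn1 617 and 1788. Taking the first day from which a gene stayed at least 2-fold above the empty vector through day 6, on the scale of log2(signal + 63.1), Tagln reached it on day 0 in the Esrrb course, day 1 in the Sox2 and Tcl1 courses, day 2 in the Tbx3 course, day 3 in the Mm343880 course and day 4 in the Oct4 course. In the Nanog course Tagln, Acta2 and Cnn1 did not hold such a difference through day 6.

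Several courses were lower on the last days than at their peak, and so was the empty vector course. In the Nanog course Acta1 and Tagln were highest on day 4, and Acta2 was 4767 on day 5, 1726 on day 6 and 2435 on day 7. From day 6 to day 7 of that course Acta1 went from 1058 to 1662 and Tagln from 1262 to 2547. In the Esrrb course Acta1 was 9819 on day 5 and 3274 on day 7, and in the Tcl1 course it was 6933 and 2495 on those days. In the Tbx3 course Cnn1 was 419 on day 6 and 78.2 on day 7, against 42.4 and 55.7 in the empty vector course. The Sox2 course kept its level, with Acta1 at 8468 and Acta2 at 12833 on day 7, which was the highest Acta2 signal of that course.

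The 3 probe sets annotated to Acta2 disagreed. The description above rests on 1416454_s_at on the A array, whose signal ran from 708 to 22102 and was above the table median in 70 of 70 samples. The ending _s_at marks a set whose probes may match more than 1 transcript, and the actin genes are closely alike in sequence, so signal from other actin transcripts cannot be told apart. The set 1456658_at, also on the A array, ran from 9.6 to 159.5, was above the table median in 0 of 70 samples and did not pass the filter. The set 1444105_at on the B array ran from 6.3 to 122.5 and was above its table median (89.2) in 6 of 70 samples, which was enough to pass the filter. Between days 0 and 1 and days 4 to 6 of the 9 courses the log2 change was -0.55 (Oct4) to 0.61 (retinoic acid) for 1444105_at and -0.26 (Oct4) to 0.58 (Esrrb) for 1456658_at. Their late log2 differences from the empty vector were from -0.38 (Oct4) to -0.01 (Tcl1) for 1456658_at and from -1.26 (Mm343880) to -0.05 (Esrrb) for 1444105_at in the 7 knockdown courses, and no direction can be read from signals this low. Over the 70 samples, 1416454_s_at correlated with them at Pearson's r = 0.03 and 0.12. Acta1, Tagln and Cnn1 each had 1 probe set, so no second measure of them was at hand.

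**Figure D3:**
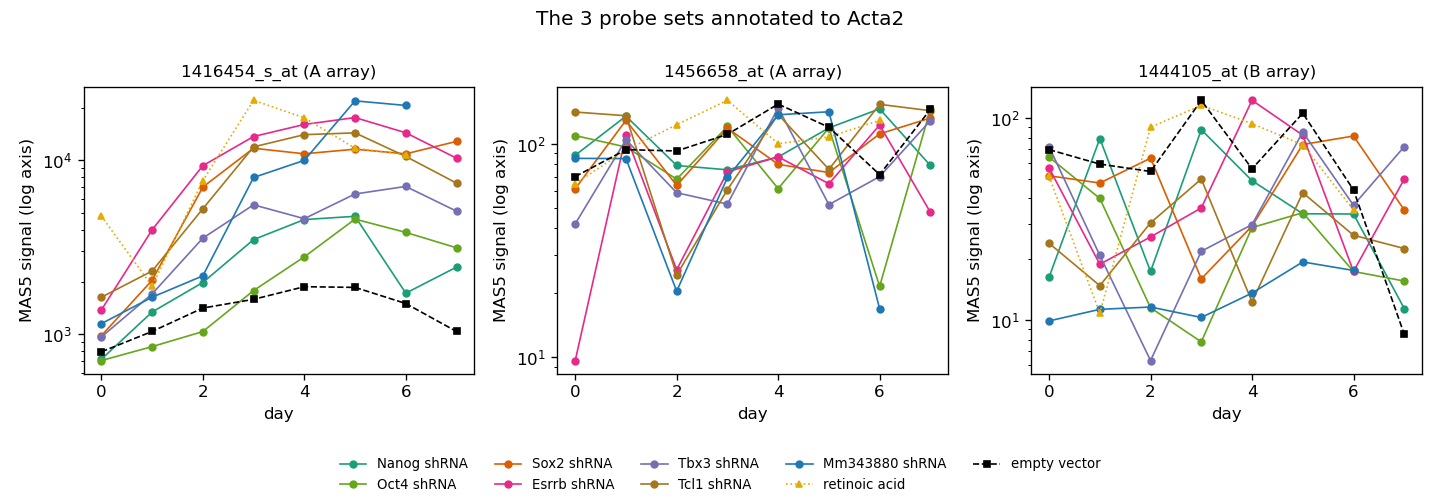
Deposited MAS5 signal (log axis, each panel with its own range) of the 3 probe sets annotated to Acta2, by day, in all 9 courses. The left set spans 708 to 22102 units, and the other sets stay at or under 159.5 units.

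Among themselves the 4 genes moved together over samples. The correlation of log2 signals over the 70 samples was 0.96 for Acta2 with Tagln, 0.94 for Acta1 with Tagln, 0.93 for Acta2 with Cnn1, 0.89 for Tagln with Cnn1, 0.86 for Acta1 with Acta2 and 0.77 for Acta1 with Cnn1. Without the 7 retinoic acid samples the pairs with Acta1 were higher, at 0.97 with Tagln, 0.93 with Acta2 and 0.85 with Cnn1. The samples of a course follow each other in time and the genes were selected on their signals in them, so these values describe the samples and have no p.

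The genes whose pattern was most like each member were found over the same 70 samples, among the 14749 genes tested, leaving out the 4 members themselves. Closest to Acta1 were Anxa3 (r = 0.87), which encodes a membrane-binding annexin, Cnn2 (0.86), which encodes a calponin of non-muscle cells, Tnfrsf12a (0.86), Glipr2 (0.85) and Bgn (0.85), which encodes the matrix proteoglycan biglycan. Closest to Acta2 were Capn2 (0.88), which encodes a calcium-activated protease, Cnn2 (0.85), Anxa3 (0.84), Limd2 (0.84) and Pxdn (0.84). Closest to Tagln were Anxa3 (0.90), Capn2 (0.88), Tpm1 (0.88), which encodes a tropomyosin, Ccn1 (0.86) and Cnn2 (0.86). Closest to Cnn1 were Myl9 (0.86), which encodes the regulatory light chain of smooth muscle myosin, Capn2 (0.85), Actc1 (0.84), which encodes the actin of heart muscle, Dbn1 (0.83) and Limd2 (0.82). Anxa3 averaged 3773 under Sox2 shRNA, 3145 under Esrrb shRNA and 2723 under retinoic acid on the late days, against 356 in the empty vector course. Actc1 averaged 1917 under Mm343880 shRNA and 1627 under Esrrb shRNA, but 282 under Oct4 shRNA, against 345 in the empty vector course.

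Many genes of a list drawn up for the smooth muscle contractile apparatus were also higher in the knockdown courses. The list includes actin-binding and myosin genes of non-muscle cells, such as Cnn2, Tagln2 and Myh9. Of its 20 genes, not counting the 4 members, 19 passed the filter and were tested as late differences from the empty vector. The test was limma, with p-values adjusted over all 14749 genes and a threshold of 0.05. In the Sox2 course 14 of 19 were higher, where 11.2% of all genes were higher and 11.6% lower. In the Esrrb course 12 of 19 were higher (all genes, 7.03% higher and 4.95% lower), and in the Mm343880 course 10 of 19 (7.14% and 6.84%). In the Tcl1 course 9 of 19 were higher (4.69% and 3.86%), in the Tbx3 course 9 of 19 (5.61% and 5.31%), in the Nanog course 9 of 19 (11.1% and 9.59%) and in the Oct4 course 8 of 19 (6.16% and 10.2%). In each of the 7 courses 0 of 19 were lower by limma, and at an unadjusted p under 0.05 there were 0 to 2. The Tbx3 count was 5 without day 5 and 5 without the spline, and the Oct4 count was 5 without the spline. The median log2 difference of the list was 1.14 in the Sox2 course (all genes -0.03), 0.59 in the Esrrb course (-0.01) and 0.21 in the Oct4 course (-0.10). The 7 courses share the empty vector samples.

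Of the 19, 6 rose in all 7 courses, and these were tropomyosins, non-muscle myosin and other actin-binding genes. The share of all genes that rose in all 7 courses was not counted. It cannot exceed the 4.69% that were higher in the Tcl1 course. Cald1, which encodes caldesmon, rose 3.34-fold (Tbx3) to 10.9-fold (Sox2), with a highest adjusted p of 7.7e-05. Its mean late signal was 5073 under Sox2 shRNA, against 381 in the empty vector course. Csrp1, which encodes a LIM protein of actin bundles, rose 2.10-fold (Tbx3) to 7.79-fold (Sox2), and Tpm1 rose 2.21-fold (Tbx3) to 8.35-fold (Esrrb). The others were Cnn2, Tpm4 and Myh9, named after their values were seen. Myl9 rose in 5 courses, up to 3.97-fold under Tcl1 shRNA, and had log2 differences of 0.36 under Nanog shRNA and -0.31 under Oct4 shRNA that did not pass.

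**Figure D4:**
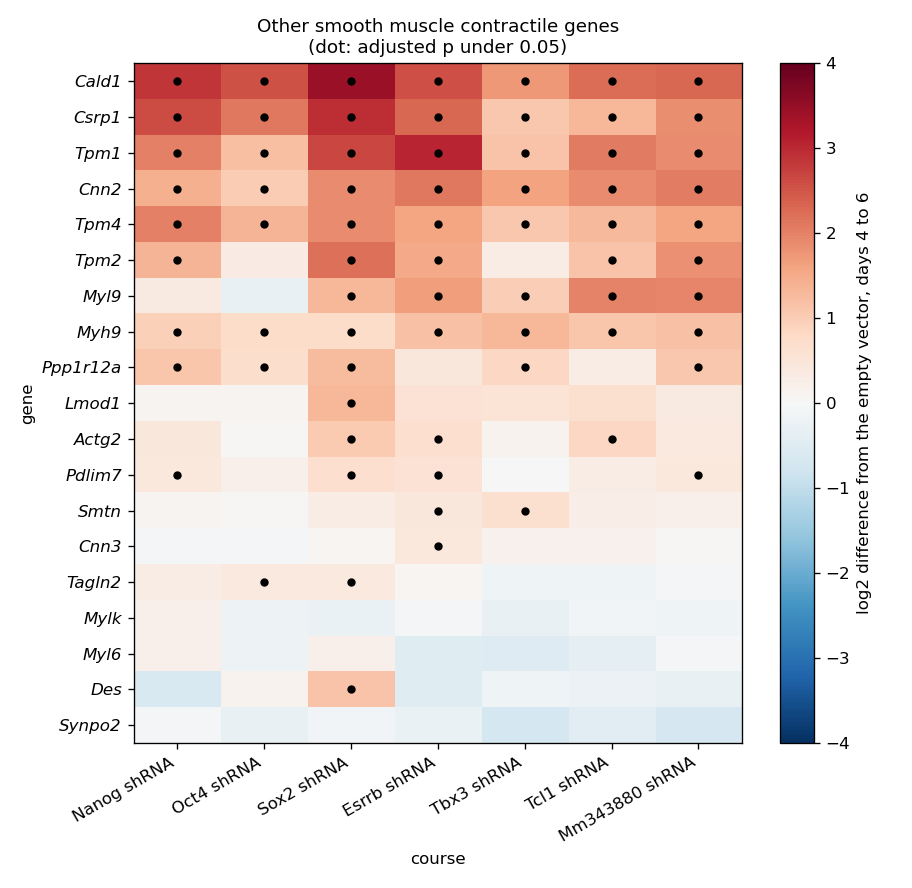
Late log2 difference from the empty vector of the 19 tested genes of the contractile list (rows, sorted by their median) in the 7 knockdown courses (columns). A dot marks an adjusted p under 0.05. The upper rows, from Cald1 to Myh9, carry most of the dots, and Mylk, Myl6 and Synpo2 have 0.

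Of 6 tested genes regarded as defining for smooth muscle, 0 to 3 were higher in a knockdown course. Of all genes 4.69% (Tcl1) to 11.2% (Sox2) were higher in a course. Myh11, which encodes the myosin heavy chain of smooth muscle, was above the table median in 0 of 70 samples (highest signal 220.0) and was not tested. Mylk, the myosin light chain kinase gene, had log2 differences from -0.29 to 0.19 over the 7 courses, and Synpo2, a Z-disc and actin bundle gene, from -0.71 to -0.05, and neither passed in a course. Of the 6 tested smooth muscle markers, all of which also belong to the 19 genes above, 3 were higher in the Sox2 course, 2 in the Esrrb course, 1 each in the Tbx3 and Tcl1 courses and 0 in the Nanog, Oct4 and Mm343880 courses, where by limma's unadjusted p under 0.05 there was 1 higher gene in the Nanog course, 0 in the Oct4 course and 1 lower gene in the Mm343880 course. Actg2, the enteric smooth muscle actin gene, rose in 3 courses, up to 2.08-fold in the Sox2 course. Lmod1 rose 2.53-fold in the Sox2 course, Des, the desmin gene, rose 2.20-fold in the Sox2 course (adjusted p = 0.0242), and Smtn rose 1.55-fold in the Tbx3 course. The summed signal of all 7 markers on the late days was 2519.7 to 3306 in the Sox2 course and 1383 to 2185 in the other 6 knockdown courses, against 1535 to 1823 in the empty vector course. None of the 7 markers was at 0.

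Markers of other muscle and of embryonic lineages moved in some of the same courses, and their part in the contractile signals was not tested. Beside the counts below, 4.69% (Tcl1) to 11.2% (Sox2) of all genes were higher in a course. Lower were 3.86% (Tcl1) to 11.6% (Sox2). Of 8 skeletal muscle markers 4 were tested, of which 1 was higher in each of the Nanog, Oct4 and Sox2 courses. Tnni2 rose 4.58-fold in the Sox2 course and Tnnt3 2.45-fold in the Nanog course, while Myog, Myf5, Myf6 and Myh3 were above the table median in 0 of 70 samples. Their list summed to 452 to 1186 over the knockdown courses, against 564 to 955 in the empty vector course. Of 6 tested cardiac markers, Actc1 rose in the Sox2, Esrrb, Tcl1 and Mm343880 courses, up to 5.04-fold, and Myl7 and Tnni3 fell in 2 courses each. Myl4, an atrial myosin light chain gene, rose 3.12-fold in the Nanog course, 1.63-fold in the Oct4 course and 2.87-fold in the Sox2 course, and fell in the Tbx3 and Mm343880 courses. Nkx2-5 and Tnnt2 passed in 0 courses, and the cardiac list summed to 1721 to 4504 in the knockdown courses, against 1996 to 2258 in the empty vector course. Fibroblast markers summed to 3360 to 4005 in the Esrrb course, 2439 to 4123 in the Sox2 course, 2459 to 2621 in the Mm343880 course, 2159 to 5207 in the Tbx3 course and 1495 to 2521 in the other 3 knockdown courses, against 1784 to 2082 in the empty vector course. Of 9 tested fibroblast markers 4 were higher and 1 lower in the Esrrb course, 3 higher and 1 lower in the Sox2 course, and 0 to 2 higher and 0 to 1 lower in each of the others. The courses with 0 higher by limma were Oct4 and Mm343880, with 1 and 2 higher at an unadjusted p under 0.05. Trophectoderm markers summed to 40659 to 91603 in the Nanog course, 55405 to 67864 in the Oct4 course, 57228 to 73823 in the Sox2 course and 7568 to 52417 in the other 4 knockdown courses, against 4608 to 7748 in the empty vector course. The keratin genes Krt19, Krt18 and Krt8 rose in all 7 courses. Krt8 alone averaged 21530 under Nanog shRNA and 19429 under Sox2 shRNA, so keratins carry much of these sums. Of 9 tested markers 9 were higher in the Nanog and Oct4 courses, 8 in the Sox2 course and 6 in the Esrrb course. In each of the others 5 were higher, with 1 lower in the Mm343880 course. Cdx2 averaged 2052 under Oct4, 1098 under Esrrb and 413 under Sox2 shRNA, against 122 in the empty vector course. Eomes was higher only in the Nanog and Oct4 courses. The Nanog and Oct4 courses thus combined high trophectoderm sums with the smallest differences of the 4 contractile genes. In the Sox2 course both the sum and these differences were high. Extraembryonic endoderm markers summed to 8931 to 20543 in the knockdown courses, against 6485 to 8531 in the empty vector course. Of 10 tested, 5 were higher and 0 lower in the Nanog course, 3 and 1 in the Sox2 course and 3 and 0 in the Mm343880 course. The counts were 2 and 1 (Oct4), 2 and 0 (Tcl1), 1 and 1 (Tbx3) and 1 and 2 (Esrrb) elsewhere. The median log2 difference of the list was -0.29 (Esrrb), -0.17 (Tbx3) and -0.15 (Oct4), and 0.18 to 0.64 in the others. The sums therefore do not show a rise of most members.

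A list of SRF and MRTF target genes, mostly outside the contractile apparatus, also held many genes that rose. Of 20 tested genes, which include Tpm1 and Myl9 of the contractile list, 13 were higher in each of the Sox2 course (all genes, 11.2%) and the Esrrb course (7.03%), 11 in the Mm343880 course (7.14%) and 10 in the Nanog course (11.1%). In the Tcl1 course 9 were higher (4.69%), in the Tbx3 course 8 (5.61%) and in the Oct4 course 5 (6.16%). In the Nanog course 2 were lower (all genes, 9.59% lower), in the Sox2 course 2 (11.6%) and in the Oct4 course 1 (10.2%). In the other 4 courses 0 were lower, and 0 at an unadjusted p under 0.05 by limma. Of all genes 3.86% (Tcl1) to 6.84% (Mm343880) were lower in those 4. Ccn2, a matricellular gene, rose in 6 courses, up to 4.18-fold in the Sox2 course, and had a log2 difference of -0.13 under Oct4 shRNA. Fhl2, which encodes a LIM protein that binds SRF, rose in all 7, from 2.41-fold (Tbx3) to 4.06-fold (Sox2). Of the immediate early genes of the list, Fos rose in 3 courses, Ier2 fell in 3, Egr1 fell in the Sox2 course, and Fosb and Junb passed in 0 courses.

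Srf itself passed in 0 of 7 courses, with log2 differences from -0.19 to 0.14. Of the 11 tested genes for SRF and its cofactors, 5 were higher and 2 lower in the Nanog course (all genes, 11.1% and 9.59%). The counts were 3 and 1 in the Sox2 course (11.2% and 11.6%), and 2 and 2 in the Oct4 (6.16% and 10.2%) and Esrrb (7.03% and 4.95%) courses. They were 2 and 1 in the Tbx3 (5.61% and 5.31%) and Mm343880 (7.14% and 6.84%) courses, and 2 and 0 in the Tcl1 course (4.69% and 3.86%). Fhl1 rose in 6 courses and Fhl2 in 7, and Klf4, which is also an embryonic stem cell gene, fell in 5. Mrtfa rose in the Nanog and Sox2 courses, by 0.62 and 0.36 on the log2 scale, and Mrtfb in the same courses by 0.85 and 1.18. Myocd, which encodes myocardin, was above the table median in 0 of 70 samples. Of 17 tested TGF-beta pathway genes, 5 were higher in the Sox2 course, where 11.2% of all genes were, and 3 in each of the Esrrb (7.03%) and Tbx3 (5.61%) courses. In each of the Nanog (11.1%), Oct4 (6.16%) and Tcl1 (4.69%) courses 2 were higher, and 2 were lower in the Nanog course (9.59%) and 1 in the Tcl1 course (3.86%). In the Mm343880 course 0 passed by limma in either direction, and at an unadjusted p under 0.05 there were 4 higher and 1 lower. The receptor gene Tgfbr3 rose 5.66-fold in the Sox2 course and also in the Nanog and Oct4 courses, Thbs1 rose in 4 courses, up to 2.37-fold, and the target gene Tgfbi fell in the Nanog and Tcl1 courses. None of the 3 ligand genes Tgfb1, Tgfb2 and Tgfb3 passed in a knockdown course.

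In the retinoic acid course the genes peaked early. On days 0, 1, 2, 3, 4, 5 and 6 Acta2 was 4787, 1891, 7636, 22102, 17532, 11731 and 10738.5, and Tagln was 1668, 889, 7887, 14106, 9846, 4762 and 3669.5. Cnn1 was 220.4, 287, 871, 2837, 1474, 824 and 533, and Acta1 was 396, 437, 2409, 3878, 1242, 371 and 265. All 4 genes were highest on day 3, and the day 3 signals of Acta2 and Cnn1 were the highest of their probe sets in the 70 samples. Acta1 then fell back, and on days 5 and 6 it was below the empty vector samples of those days, at 473 and 373. On day 0 the signals in this course were already above those of the empty vector, which were 795 for Acta2, 289.5 for Tagln, 32.6 for Cnn1 and 71.5 for Acta1. This course differs from the empty vector in LIF, transduction and sorting together, so it was compared with its own first days.

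The 4 genes were chosen with earlier results of these data known, so their changes in the retinoic acid course are given with no test. Between days 0 and 1 and days 4 to 6 of this course Acta2 rose 3.76-fold (log2 1.91 ± 0.31, SE of the fit). Tagln rose 3.59-fold (1.84 ± 0.45) and Cnn1 2.93-fold (1.55 ± 0.36). The mean signal of Acta2 was 13334 on the late days and 3339 on the early days, and for these 3 genes 3 of 3 late samples were above both early samples. Acta1 had a change of 0.10 ± 0.42 and only 1 of 3 late samples above the early ones. The errors rest on a spread shared by all courses, and samples of this course lay further from their curve than others. For Acta2 the log2 residual was -1.24 on day 1 and 0.86 on day 3, against at most 0.07 in the empty vector course. The errors, and the p-values given below for other genes of this course, may therefore understate its scatter. By limma 17.9% of all genes rose and 14.2% fell in this comparison, and the median change of all genes was 0.12. Leaving out day 6 lowered the fitted rises of Acta2, Tagln and Cnn1 to 0.66, 0.71 and 0.69 on the log2 scale. There the curve of this course ends at day 5 and was extended to day 6. The day 4 and day 5 signals of these genes were still above both early samples. Without day 0 the curve was extended back from day 1. The change of Acta1 was then 2.19, and those of Acta2, Tagln and Cnn1 were 4.37, 4.59 and 2.94. Fibroblast markers moved alongside, with 6 of 9 tested higher over the course and a sum of 17317 to 24949 on its late days, against 1784 to 2082 in the empty vector course. Extraembryonic endoderm markers summed to 34800 to 46305 there, against 6485 to 8531 in the empty vector course. The part of these cell types in the contractile signals was not tested.

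**Figure D5:**
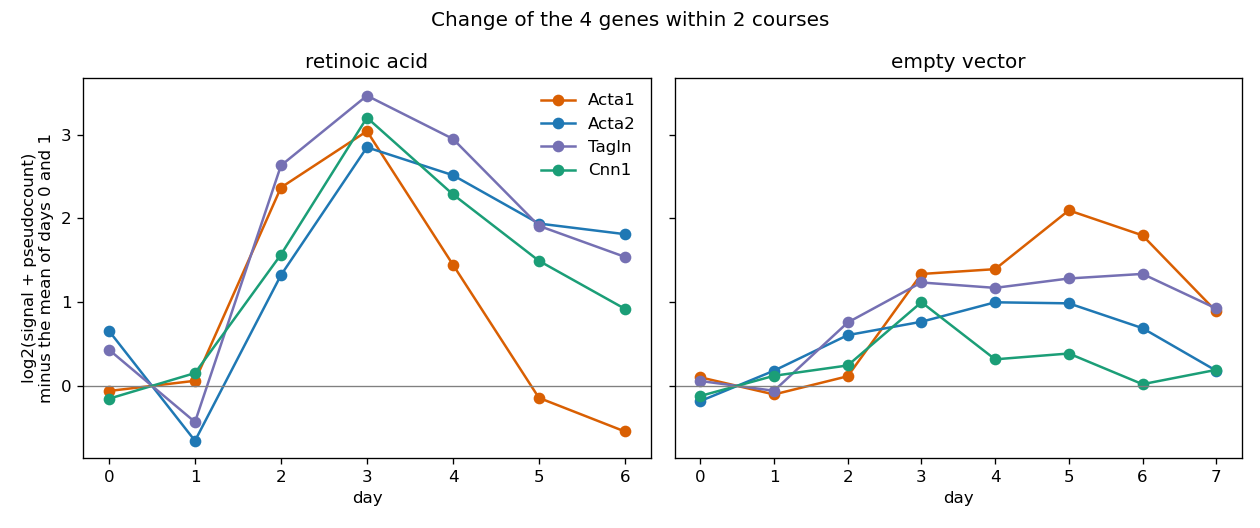
Change of log2(signal + 63.1) of the 4 genes from their mean of days 0 and 1, by day, in the retinoic acid course (left) and the empty vector course (right); each point is 1 sample. On the left all 4 genes peak on day 3 and Acta1 returns below its start by day 5, and on the right Acta1 climbs furthest.

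In the retinoic acid course 14 of the 19 other contractile genes rose and 1 fell by limma. Beside this count and those below, 17.9% of all genes rose and 14.2% fell over this course. The log2 rise of Cald1 was 2.76 ± 0.34 (SE, adjusted p = 9.61e-09) and that of Tpm1 2.49 ± 0.39 (adjusted p = 1.82e-06). Actg2 rose by 2.40 ± 0.23 (adjusted p = 2.37e-11), Mylk by 1.47 ± 0.29 (adjusted p = 7.01e-05) and Synpo2 by 0.97 ± 0.33 (adjusted p = 0.0189). These are changes within the course, an unlike measure to the late differences from the empty vector used for the knockdowns. By those differences Actg2 was higher in 3 knockdown courses and Mylk and Synpo2 in 0. Tagln2, a transgelin gene of non-muscle cells, was the one that fell. Myl9 rose by 1.43 ± 0.27 (adjusted p = 3e-05). Of the SRF and MRTF targets 7 of 20 rose and 3 fell, and Ccn2 fell by 1.37 ± 0.22 (adjusted p = 1.98e-06). Of the 17 TGF-beta pathway genes 9 rose and 1 fell, and Tgfb2 (2.91 ± 0.28) and Tgfb3 (3.57 ± 0.32) were among those that rose.

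In the empty vector course Acta1 also climbed. The late empty vector samples entered the differences on which the genes were selected, so the changes of the 4 genes in this course are given with no test. Acta1 was 71.5, 53.7, 72.7, 253, 266, 473, 373 and 169 on days 0 to 7, and its log2 change from days 0 and 1 to days 4 to 6 was 1.80 ± 0.42 (SE of the fit). The late mean was 370.5 ± 103 (SD, n = 3) and the early mean 62.6 ± 12.6 (n = 2), and 3 of 3 late samples were above both early ones. Over 17 other settings the change was 0.93 to 2.57, lowest with a pseudocount at the table median and highest with a pseudocount of 1. Tagln had 289.5, 262, 509, 734, 699, 760.3, 792 and 579 on the same days and a change of 1.20 ± 0.45. The changes of Acta2 and Cnn1 were 0.87 ± 0.31 and 0.33 ± 0.36. By limma 0.468% of all genes rose and 0.271% fell in this course.

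The change of Acta1 was 0.10 in the retinoic acid course, against 1.80 in the empty vector course, a difference of -1.70 ± 0.59 on the log2 scale (SE). It too carries no test, since the late empty vector samples enter it. Without day 0 the difference was 0.10, and without any other single day it was -2.73 to -1.34. The same difference was 1.04 ± 0.44 for Acta2, 1.22 ± 0.51 for Cnn1 and 0.64 ± 0.63 for Tagln. Of all genes 12.7% had a larger and 10.4% a smaller change under retinoic acid by limma.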

How the data were processed

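The authors used MAS5 to make the signals, per the submitters' processing notes (version not given in the sources used here). Each deposited value is the linear intensity of a probe set on 1 of 140 arrays. The trimmed mean of 100 control probe sets found on both designs was 2500 on each array, so they had served to scale the arrays. Groups and days are those of the labels. Array medians ran from 236 to 383 on A arrays and from 64.5 to 128.5 on B arrays, and the number of arrays limits the precision. No column of the tables was left unused.

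Signals were analysed as log2(signal + pseudocount), with the table's 20th percentile as pseudocount (63.1 on A, 21.8 on B), which understates the folds of low genes such as Cnn1. The filter kept probe sets that exceeded the median of their table (283.3 on A, 89.2 on B) in 3 or more of the 70 samples. Of the sets annotated to a single gene, the one ranking highest on average stood for the gene, which left 14749 genes. The fit used limma (version 3.58.1, lmFit and eBayes with trend) under R (version 4.3.3), once for A and once for B arrays, and gave each course its own natural cubic spline over days (3 degrees of freedom). Averages of a curve over days 4 to 6 are late values, and over days 0 and 1 early values. The Benjamini-Hochberg adjustment ran over the genes of both tables (threshold 0.05). The models were checked on simulated data. A check of residuals around the curves, over 36 combinations of member and course, flagged 0 samples. It takes each gene alone with 7 or 8 residuals, so it cannot show that no sample stood apart. In the retinoic acid course the day 1 log2 residuals were -1.06 (Acta1), -1.24 (Acta2), -0.61 (Cnn1) and -1.50 (Tagln).

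The members, the 11 gene lists, the tests and the rule for named genes were chosen with earlier results of these data known. Named were the 4 members, the 5 genes most correlated with each, from each list the 3 genes with the largest absolute median late difference among those called in a course, and the targeted genes. Other genes named singly were chosen after their values were seen. A Dppa4 course was not analysed here. Alternatives were other pseudocounts, quantile normalization, other splines, day as a block, no filter, eBayes without trend, the mean of all probe sets, fits of single courses, other probe sets and leaving out each day. Tests planned for the members' changes in the empty vector and retinoic acid courses are not used. The late empty vector samples entered the choice of the genes, which was made with earlier results known. Alternatives for the difference between the retinoic acid and empty vector changes were added after seeing the data.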

Additional observations from a re-analysis of the deposited data

How the results depend on the processing

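Of 448 values of the late differences under other settings with the same probe sets, 421 moved by less than the spread of the late days and 0 changed direction. With a pseudocount of 1 the late log2 differences of Cnn1 were 3.04 (Sox2), 3.92 (Esrrb), 4.28 (Mm343880), 3.39 (Tcl1), 2.37 (Tbx3) and 0.84 (Oct4). With a pseudocount at the table median they were 1.25 (Sox2), 1.91 (Esrrb), 2.15 (Mm343880), 1.45 (Tcl1) and 0.87 (Tbx3), for Acta1 3.90 (Sox2), 3.40 (Esrrb), 3.06 (Tcl1) and 0.84 (Oct4), for Acta2 3.0 (Esrrb) and 2.77 (Tcl1), and for Tagln 3.64 (Sox2) and 3.59 (Esrrb). A pseudocount acts most on low signals by construction. With a spline of 2 degrees of freedom Acta1 was at 5.12 (Sox2) and 1.46 (Oct4), Acta2 at 2.95 (Sox2) and 3.29 (Esrrb), Tagln at 4.25 (Sox2) and 1.30 (Oct4) and Cnn1 at 2.37 (Sox2). After quantile normalization Acta2 was at 2.80 (Tcl1). The other probe sets of Acta2 are too low for a direction to be read. In the order Nanog, Oct4, Sox2, Esrrb, Tbx3, Tcl1 and Mm343880, 1444105_at gave -0.60, -0.96, -0.33, -0.053, -0.31, -0.87 and -1.26, and 1456658_at gave -0.051, -0.38, -0.24, -0.29, -0.33, -0.0099 and -0.27.

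The change of Acta1 in the empty vector course was 0.93 with a pseudocount at the table median, 1.57 with a spline of 2 degrees of freedom and 1.76 with no spline, and leaving out single days it ran from 1.73 to 2.09. That of Acta2 in the empty vector course was 0.87 in a fit of only that course. In the retinoic acid course the changes without single days ran from -0.97 to 2.19 for Acta1, from 0.66 to 4.37 for Acta2, from 0.71 to 4.59 for Tagln and from 0.69 to 2.94 for Cnn1. The difference between both changes of Acta1 was -0.82 with a pseudocount at the table median, -1.38 with a spline of 2 degrees of freedom and -1.51 with no spline, and without single days it ran from -2.73 to 0.10, turning direction without day 0. That of Acta2 was 1.47 after quantile normalization and ran from -0.19 to 3.54 without single days, and that of Cnn1 was 1.01 with a pseudocount at the table median. Without the spline the contractile list had 5 genes higher in each of the Oct4 and Tbx3 courses. In the Tbx3 course leaving out single days gave 5 to 9, the lowest without day 5. The cause of these shifts was not tested. Courses share days but no replicate numbers. Day as a block, which pairs samples of the same day, changed no direction of a late difference, and it gives no value for a change over time.

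Each value rests on 1 sample per day and course. Acta1, Tagln and Cnn1 have 1 probe set each, Cnn1 is below the table median in the late empty vector samples, and the deposited tables hold no detection calls, so low signals have no order.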
